A study of Mus musculus with 8 samples.

Results

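The genes described here are 38 genes of glycolysis and of the response to low oxygen, found by their symbols among the 32285 genes listed for 8 single-cell RNA-sequencing libraries of mouse colon. They were 14 enzymes of glycolysis, 2 regulators of pyruvate and fructose metabolism, 2 carriers of glucose and lactate, and 20 other genes known to respond to hypoxia. The groups were epithelium of colon tissue (tissue epithelium), of colon organoids (organoid epithelium) and of colon assembloids (assembloid epithelium), and the stroma of colon assembloids (assembloid stroma), with 2 libraries each. The cells came from adult male C57BL/6 mice. The genes were selected on measured levels, since the list was drawn up with their levels and fold changes in these libraries known. Crypts from tissue were released with EDTA and split into cells with TrypLE. Organoids were epithelium alone in Matrigel, described by the study as kept in a full medium with a Wnt surrogate, CHIR-99021, R-spondin 1 and noggin. Assembloids were organoids embedded with stromal cells, which had first been expanded on plastic, in a Matrigel droplet on an orbital shaker, in medium without these 4 factors. Assembloids were digested with Liberase TL before TrypLE, and the study describes their stromal cells as EpCAM-negative. Culture, medium, partner cells and dissociation therefore differ together between the epithelial groups and cannot be told apart.

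Glycolysis splits glucose into pyruvate and yields ATP without oxygen, and lactate dehydrogenase turns pyruvate into lactate so that the pathway can go on. When oxygen is short, prolyl hydroxylases no longer mark the alpha subunit of hypoxia-inducible factor (HIF) for breakdown, and HIF then binds short DNA elements and raises genes of glycolysis, mitophagy, vessel growth and collagen folding. The gut epithelium is known for a low oxygen level at its luminal surface, and colonocytes near the lumen for the oxygen they use in burning butyrate.

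The files hold UMI counts, which are counts of single captured RNA molecules per gene and cell. A cell was used if it had 500 genes or more and its mitochondrial share of UMIs did not exceed 10%, which left 4310 to 29410 cells per library. Passing cells were 25.4% and 38.7% of barcodes in tissue against 55.1% to 96.1% elsewhere. Epithelial libraries were then freed of 0 to 12.8% of cells that held more stromal than epithelial marker UMIs. The sums over the cells used came to 36943571 to 187583982 UMIs per library, so sampling error is small for all but the rarest genes. The first stromal library held 942 cells with more epithelial and squamous than stromal marker UMIs (10.4% of its cells), and the second held 79. These are called the epithelial cells of the stroma below. Over all cells of the 2 stromal libraries epithelial markers summed to 484 and 106 CPM and squamous markers to 1633 and 111. No pair of libraries shared over 1.07% of the barcodes of the smaller one. Epcam lay at 941 to 2272 CPM, which is the UMIs of a gene scaled to one common total of UMIs per library, in the epithelial libraries and at 111 and 23.8 CPM in the stromal ones, and Col1a1 at 0.0108 to 26.2 CPM against 1132 and 1582 CPM. The headers name Cell Ranger 7.1.0 for epithelium and 6.0.1 for stroma, so that stroma and epithelium also differ in counting software, which cannot be told apart from the cell type. Values below are CPM of a library, each given for library 1 and then library 2. They are counts of 3' tags and are compared between libraries, not between genes. The study describes the libraries of a group as biological replicates, and p-values measure the spread between these libraries.

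Because HIF binds near the start of its targets, the 300 bases around each start site (250 before it and 50 after it, RefSeq, GRCm38.p6) were searched for ACGTG and GCGTG on both strands, the core of the hypoxia response element. ACGTG read on the other strand is CACGT, and a CACGTG holds both, which is also the E-box of other factors. Of the 38 genes, 35 had an entry, Ero1l under its newer symbol Ero1a, and Bnip3l, Ndufa4l2 and Ndrg1 had none. At least 1 match was present for 33 of the 35, with Gpi1 and Tpi1 as the exceptions, against 46.7% of all 27025 genes in the table. Counted per start site, 81.1% of 53 windows held a match, against 43.8% of 32851. With ACGTG alone, 27 of the 35 genes had a match, against 21.8% of all genes. A match in such a window is a description of its letters and not of binding. The genes of the table were not matched to the 38 by base content or expression. The 38 also include genes listed because they are known to respond to hypoxia. No enrichment is therefore read from these shares. The 150 bases before the start are shown for the 2 carriers, whose levels took different courses in organoids, and for 3 genes with a wide difference between assembloid and tissue epithelium, with matches in capitals.
Slc2a1, chr4:119108595-119108744 on the plus strand: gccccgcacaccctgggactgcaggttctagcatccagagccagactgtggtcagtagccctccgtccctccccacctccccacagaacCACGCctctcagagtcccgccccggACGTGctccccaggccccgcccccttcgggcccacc
Slc16a3, chr11:120948917-120949066 on the plus strand: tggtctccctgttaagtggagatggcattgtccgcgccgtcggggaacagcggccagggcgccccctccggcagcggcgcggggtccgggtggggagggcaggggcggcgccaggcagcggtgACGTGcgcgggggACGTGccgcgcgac
Bnip3, chr7:138909507-138909656 on the minus strand: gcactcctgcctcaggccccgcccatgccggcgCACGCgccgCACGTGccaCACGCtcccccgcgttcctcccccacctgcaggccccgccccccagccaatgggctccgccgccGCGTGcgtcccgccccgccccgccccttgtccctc
Adm, chr7:110627507-110627656 on the plus strand: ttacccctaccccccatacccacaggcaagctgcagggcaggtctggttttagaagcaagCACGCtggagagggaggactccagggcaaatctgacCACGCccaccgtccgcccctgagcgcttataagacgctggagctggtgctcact
Ero1l (Ero1a), chr14:45318573-45318722 on the minus strand: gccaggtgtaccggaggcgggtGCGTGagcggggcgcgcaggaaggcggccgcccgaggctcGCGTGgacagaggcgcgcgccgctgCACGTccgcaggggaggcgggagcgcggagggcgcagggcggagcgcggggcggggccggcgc
The window of Bnip3 held 5 matches, of which 2 overlap in a CACGTG that begins 108 bases before the start, and that of Ero1l held 3. Slc16a3 had its 2 ACGTG 27 and 14 bases before the start. Slc2a1 had 1 CACGC 61 bases and 1 ACGTG 36 bases before it, and both carriers held the element. Adm held 2 CACGC and no ACGTG in the stretch shown.

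In assembloid epithelium, all 38 genes lay above tissue epithelium and passed an adjusted p under 0.05 in edgeR's quasi-likelihood test, where 49.7% of the 19214 genes tested passed and 26.7% passed as higher. The median log2 fold change was 2.40 for the 38 genes and 0.03 for all genes tested. Without tissue library 1, Hif1a, Hk1, Hk2, Mxi1 and Pfkl did not pass, and 26.1% of all genes passed. In organoid epithelium, 27 genes passed as higher than in tissue, Hk1 passed as lower and 10 did not pass (47.2% of all genes passed, 24.3% as higher and 22.9% as lower), with medians of 1.40 and 0.06. Of these calls, those of Aldoa, Egln1, Fam162a, Gpi1, Hk1 and Vegfa were lost without either tissue library. Those of Gapdh, Pfkl and Pfkp were lost without tissue library 1. Between the cultures, 25 of the 38 genes passed as lower in organoid than in assembloid epithelium, 13 did not pass and 0 passed as higher (52.8% of all genes passed, 28.5% as lower and 24.3% as higher), with medians of -1.28 and -0.01. Because of how the list was chosen, these counts are a description from which nothing is read. The 3 comparisons share libraries pairwise. The scaling between libraries used in the fit (TMM) adds 0.40 to each log2 fold change of assembloid against tissue epithelium relative to a scaling by library totals, 0.24 to those of organoid against tissue epithelium, and -0.16 to those of organoid against assembloid epithelium and of stroma against assembloid epithelium. No gene of the 38 that passed changed direction between these scalings. Among those that did not pass, Kdm3a, Mxi1 and Slc2a1 in organoids against tissue, Pkm between the cultures, and Pfkl, Pkm and Vegfa between stroma and epithelium did.

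**Figure D1:**
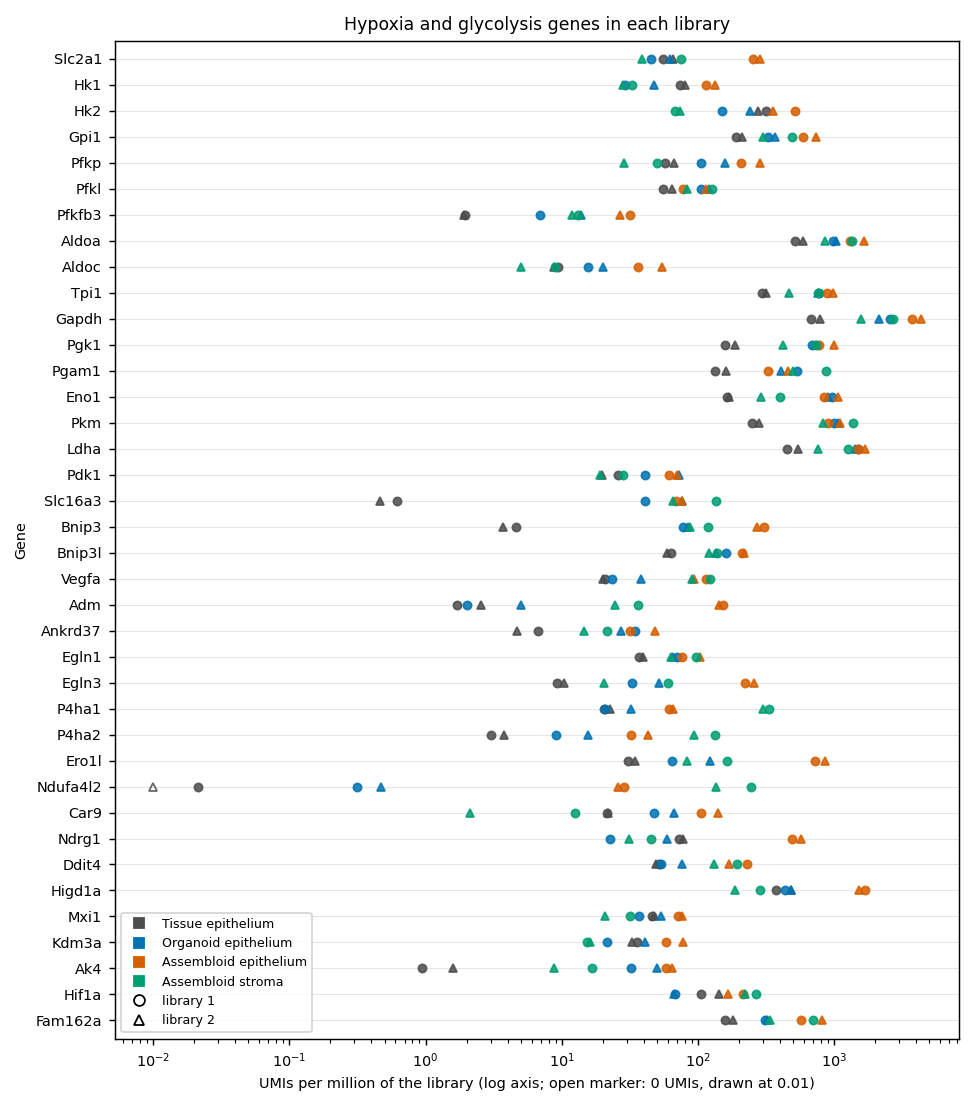
Level of each of the 38 genes (rows) in CPM on a log axis, with 1 marker per library, coloured by group and shaped by library number. Both assembloid epithelium libraries lie to the right of both tissue libraries in every row, from Hk2 (512 and 353 against 314 and 278 CPM) to Ndufa4l2 (28.6 and 25.9 against 0.0213 and 0 CPM).

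The 2 carriers differed in where they were high. Slc2a1, the glucose carrier GLUT1, lay at 55.1 and 65.8 CPM in tissue, 45.4 and 61.96 in organoids and 252 and 283 in assembloid epithelium. Organoid and tissue libraries overlapped, with a log2 fold change of 0.05 ± 0.21 (SE, n = 2 libraries a group, as for all fold changes here), and assembloids lay above both. Slc16a3, the lactate exporter MCT4, was close to absent from tissue at 0.617 and 0.460 CPM and reached 40.8 and 76.9 in organoids and 68.7 and 76.4 in assembloid epithelium. The groups of culture overlapped, and the log2 fold change over tissue was 6.95 ± 0.32 in organoids and 7.45 ± 0.33 in assembloids.

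Of the enzymes, the hexokinases, which phosphorylate glucose at entry, stood apart from the later steps. Hk1 lay at 74.3 and 80.6 CPM in tissue, 29.1 and 47.5 in organoids and 115 and 134 in assembloid epithelium. It was the only one of the 38 genes that passed as lower in organoids than in tissue (log2 fold change -0.81 ± 0.21), a call that was lost within cells of the cycling gate and without either tissue library. Hk2, the isoform that HIF induces in many tissues, gave 314 and 278 CPM in tissue, 149 and 242 in organoids and 512 and 353 in assembloids, which at 0.97 ± 0.30 was the smallest of the 38 differences between assembloid and tissue epithelium. Its organoid libraries were below both tissue libraries without passing the test (-0.39 ± 0.30). Its call in assembloids was lost without assembloid library 1, without either tissue library, with up to 20% mitochondrial UMIs and with cells thinned to 2000 UMIs.

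The 2 phosphofructokinase subunits that commit sugar to glycolysis were both higher in both cultures. Pfkl lay at 55.5 and 64.9 CPM in tissue, 104 and 119.6 in organoids and 77.98 and 114 in assembloid epithelium, and organoid and assembloid libraries overlapped (0.07 ± 0.22). Pfkp was 1.29 ± 0.23 above tissue on the log2 scale in organoids and 2.37 ± 0.24 in assembloids. Pfkfb3, whose product makes the activator fructose 2,6-bisphosphate, was 2.61 ± 0.29 and 4.32 ± 0.31 above tissue in the same order.

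In the steps from aldolase to lactate dehydrogenase, the fitted difference between organoids and tissue was larger than that between the cultures for every member except Aldoc. Gapdh, the enzyme that oxidises glyceraldehyde 3-phosphate, rose in order from 672 and 792 CPM in tissue through 2574 and 2116 in organoids to 3715 and 4332 in assembloid epithelium. The groups did not overlap, although its lower level in organoids than in assembloids (-0.91 ± 0.34) lost its call under 10 of the alternatives tried. Pgk1, which makes the first ATP of the pathway, lay at 157 and 188 CPM in tissue, 691 and 740.4 in organoids and 778 and 993 in assembloids. Eno1 (enolase) lay at 164 and 169, 959 and 907 and 847 and 1059 CPM in the same groups. Every culture library of both genes lay above both tissue libraries, and neither gene passed between the cultures. Pgam1, a mutase, gave 133 and 161 CPM in tissue, 530.5 and 407 in organoids and 328 and 458 in assembloids. For Pkm, the pyruvate kinase gene, the values were 250.4 and 281, 1000.3 and 1072 and 896 and 1094 CPM. Ldha, the lactate dehydrogenase subunit, came to 451 and 543, 1503 and 1417 and 1487 and 1678 CPM. The organoid and assembloid libraries of these last 3 enzymes overlapped, with log2 differences of 0.14 ± 0.30, -0.09 ± 0.26 and -0.26 ± 0.29, and they lay above both tissue libraries.

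Aldoc, the aldolase best known from brain, lay in order with no overlap, at 9.41 and 8.72 CPM in tissue, 15.5 and 20.01 in organoids and 35.96 and 54.6 in assembloids. Aldoa and Tpi1, of the same stretch, and Gpi1, the isomerase that acts before aldolase, were 1.11, 1.57 and 1.04 above tissue on the log2 scale in organoids and 1.80, 2.00 and 2.13 above it in assembloids. For Gpi1 the difference between the cultures was -1.08 ± 0.24, about the size of that between organoids and tissue. Aldoa has a second listed row under the same symbol with 5 to 78 UMIs per library, which was left out. Pdk1, a kinase that inhibits pyruvate dehydrogenase, had 25.8 and 19.9 CPM in tissue, 41.02 and 72.4 in organoids and 61.4 and 70.03 in assembloids. It did not pass between the cultures (-0.41 ± 0.23).

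Of the genes of oxygen sensing, Hif1a, the HIF subunit whose protein but usually not whose RNA follows oxygen, lay at 106 and 143 CPM in tissue, 67.98 and 66.7 in organoids and 212 and 166 in assembloid epithelium. Both organoid libraries were below both tissue libraries, without passing the test (-0.64 ± 0.28), and both assembloid libraries were above them (1.01 ± 0.28, a call lost without assembloid library 1 and without either tissue library). Egln3, a prolyl hydroxylase that is itself a HIF target, rose in order from 9.17 and 10.3 CPM in tissue through 32.9 and 51.4 in organoids to 220.2 and 256 in assembloids. None of its groups overlapped, and assembloids were 5.01 ± 0.25 above tissue on the log2 scale. Egln1, the main oxygen sensor, and Ankrd37 were 1.63 and 3.20 above tissue in assembloids and 1.08 and 2.71 above it in organoids, and neither passed between the cultures.

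The genes of mitochondria and mitophagy included some of the widest differences. Bnip3, a mitophagy receptor, lay at 4.64 and 3.68 CPM in tissue, 78.1 and 84.7 in organoids and 306 and 269 in assembloid epithelium. Its log2 fold change over tissue was 4.53 ± 0.28 in organoids and 6.52 ± 0.30 in assembloids, while that of its relative Bnip3l was 1.54 ± 0.25 and 2.20 ± 0.26. Bnip3l started from a level of 63.1 and 59.5 CPM in tissue and came to 160.2 and 136 in organoids and 209 and 217 in assembloids. Ak4, a mitochondrial adenylate kinase, gave 0.936 and 1.60 CPM in tissue, 32.4 and 49.8 in organoids and 57.8 and 63.9 in assembloids, so that organoids already stood 5.25 ± 0.30 above tissue. A different course was that of Higd1a, a factor of the respiratory chain, with 371 and 481 CPM in tissue, 434 and 482 in organoids and 1679 and 1524 in assembloids. Over all cells its organoid and tissue libraries overlapped, and assembloids lay above both. Within the cycling gate Higd1a was higher in both organoid libraries, at 435 and 513 CPM against 211 and 243 in tissue. So it was in the stem gate (351 and 364 against 114 and 168) and outside all gates (450 and 530 against 312 and 397). Cells too shallow for a gate overlapped (304 and 593 against 414 and 459). The part of tissue colonocytes, at 850 and 1017 CPM, in the overlap was not tested. Fam162a was 1.14 ± 0.26 above tissue in organoids and 2.41 ± 0.27 in assembloids.

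Ndufa4l2, a subunit that takes the place of another in a respiratory complex under hypoxia, had 1 UMI and 0 UMIs in the 2 tissue libraries. It had 59 and 44 UMIs in organoids and 4754 and 2775 in assembloid epithelium. The level in assembloid epithelium was 2310 times that of tissue, with an exact 95% interval of 415 to 91400 that covers counting error only, and in organoids 30.8 times, with an interval of 5.41 to 1230. Assembloid stroma held more still, at 243 and 135 CPM. The level in assembloid epithelium was 15.1% and 13.7% of the mean of the stromal libraries. The 8 fibroblast markers there were 1.01% to 7.16% of their own stromal means in library 1 and 0.399% to 2.39% in library 2. The part of stromal RNA in the Ndufa4l2 level was not tested. Fibroblast markers also served to remove cells from these libraries, so their shares set no bound on such RNA. In the tissue and organoid libraries 7 of these markers lay at 0 to 0.0271 CPM. The other, Pdgfrb, lay at 6.26 and 5.17 CPM in tissue and 0.549 and 0.978 in organoids, against 3.30 and 1.37 in assembloid epithelium.

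Both secreted factors were high in assembloid epithelium. Adm, the vasodilator adrenomedullin, was found at 1.70 and 2.57 CPM in tissue, 2.03 and 5.01 in organoids and 152 and 141 in assembloids. Organoids overlapped tissue (0.89 ± 0.36, not passing) and lay -5.62 ± 0.40 from assembloids on the log2 scale, the second largest of such differences after Ndufa4l2. Adm did pass as higher in organoids than in tissue with DESeq2, with no filter on low counts, with either other limit on mitochondrial UMIs, within the cycling gate, outside all gates and without organoid library 1 (1.30). Vegfa, the growth factor of blood vessels, gave 20.9 and 19.9 CPM in tissue, 23.2 and 37.9 in organoids and 114 and 93.1 in assembloids. Its organoid level passed as higher than in tissue (0.79 ± 0.23), which did not hold with at most 20% mitochondrial UMIs, with cells thinned to 2000 UMIs, without organoid library 2 or without either tissue library.

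Ero1l, the oxidase that forms disulfide bonds in the endoplasmic reticulum, was at 30.7 and 34.3 CPM in tissue, 64.2 and 123 in organoids and 716 and 850.0 in assembloid epithelium. No groups overlapped, and assembloids were 4.99 ± 0.32 above tissue and organoids -3.27 ± 0.30 from assembloids. The collagen prolyl hydroxylase subunits P4ha1 and P4ha2 were 1.95 ± 0.20 and 3.86 ± 0.25 above tissue in assembloid epithelium, with P4ha1 at 20.4 and 22.7 CPM in tissue and 61.3 and 65.1 in assembloids. P4ha2 had 3.04 and 3.76 CPM in tissue, 9.01 and 15.6 in organoids and 32.4 and 43.2 in assembloids. P4ha1 in organoids, at 20.8 and 32.4 CPM, did not pass against tissue.

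Among the other hypoxia-induced genes, Ndrg1, a stress gene of differentiated epithelium, lay at 72.5 and 77.2 CPM in tissue, 22.5 and 59.2 in organoids and 487 and 569.9 in assembloid epithelium. Organoids were below both tissue libraries without passing (-0.70 ± 0.34), and assembloids stood apart from both groups. The organoid libraries of Ndrg1 differed from each other, and against tissue it passed as lower without organoid library 2 (-1.31), with at most 5% mitochondrial UMIs (-1.36) and within the cycling gate (-1.05), while without organoid library 1 it came to -0.28. In cells outside all gates Ndrg1 lay at 37.2 and 49.3 CPM in tissue and 24.1 and 69.7 in organoids. There its fitted difference turned direction. Against assembloids organoids were -3.92 ± 0.37, and -4.51 without organoid library 2. Car9, the carbonic anhydrase of the cell surface that is a classical HIF target, had 21.6 and 21.7 CPM in tissue, 47.2 and 67.1 in organoids and 106 and 140.4 in assembloids, in order and with no overlap. Mxi1, an antagonist of Myc, gave 45.9 and 47.3, 37.1 and 53.6 and 71.5 and 76.2 CPM in the same groups. The organoid and tissue libraries overlapped for Mxi1, as they did for Kdm3a, a histone demethylase. Ddit4, an inhibitor of mTORC1, and Kdm3a were 0.58 and 0.05 from tissue on the log2 scale in organoids, without passing, and 2.39 and 1.38 in assembloids.

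The calls of the 3 comparisons are set side by side as a description from which nothing is read, since passing in 1 comparison and not in another does not show a difference between them. Of the 38 genes, 27 passed as higher than tissue in both cultures, as did 10.7% of all genes tested. Of these, 14 also passed as lower in organoids than in assembloids (2.21% of all genes) and 13 did not pass between the cultures (6.01% of all genes). Of these 13, 8 were enzymes of glycolysis (Aldoa, Eno1, Ldha, Pfkl, Pgam1, Pgk1, Pkm and Tpi1), and the others were Ankrd37, Bnip3l, Egln1, Pdk1 and Slc16a3. A further 10 genes passed as higher in assembloids than in tissue and as lower in organoids than in assembloids, and did not pass between organoids and tissue (11.8% of all genes). These were Adm, Ddit4, Hif1a, Higd1a, Hk2, Kdm3a, Mxi1, Ndrg1, P4ha1 and Slc2a1. The median log2 fold change of organoids over tissue was 1.54 for the 18 genes of glycolysis and transport and 1.11 for the other 20, and that of organoids against assembloids was -0.60 and -1.73. In summed level, the 18 genes took 3424 and 3839 CPM in tissue, 9874 and 9640.4 in organoids and 12184 and 14367 in assembloids, and the other 20 took 1061 and 1236, 1519 and 1798, and 5414 and 5716 CPM.

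**Figure D2:**
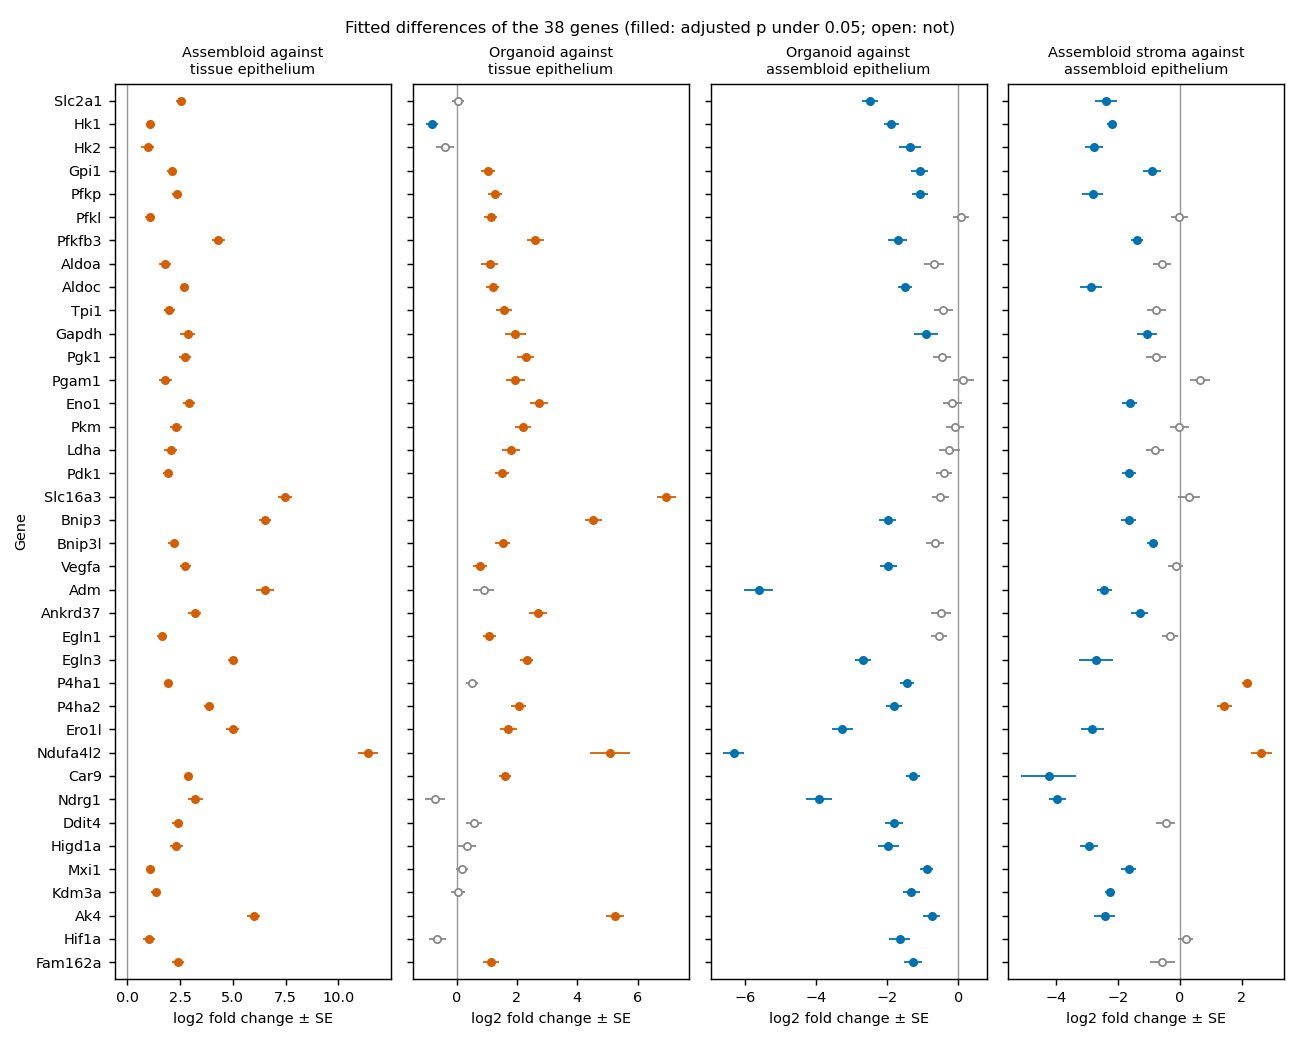
Fitted log2 fold change with its SE for each of the 38 genes (rows) in the 4 comparisons (panels, each with its own axis), filled and coloured where the adjusted p was under 0.05. Enzymes from Aldoa to Ldha lie at -0.91 to 0.14 in the third panel, apart from Aldoc at -1.51, whereas Adm, Ndrg1 and Ndufa4l2 lie at -5.62, -3.92 and -6.31; the fitted value of Ndufa4l2 against tissue rests on 1 tissue UMI.

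Other sets of genes moved with these groups too. A list of 13 immediate early genes, which respond to handling and dissociation, summed to 4218 and 4931 CPM in tissue, 1044 and 824 in organoids, 1895 and 2392 in assembloid epithelium and 2982 and 5572 in stroma. A list of 10 targets of the integrated stress response summed to 489.5 and 587 CPM in tissue, 633 and 667 in organoids, 757 and 803 in assembloid epithelium and 443 and 359 in stroma. Fibroblast markers summed to 265 and 63.3 CPM in assembloid epithelium after removal of non-epithelial cells, against 6.28 and 5.22 in tissue, 0.576 and 1.02 in organoids and 6868 and 10988 in stroma, and in tissue and organoids nearly all of the sum was Pdgfrb. Macrophage markers summed to 92.5 and 51.7 CPM in assembloid epithelium, 3.49 and 4.14 in tissue, 2.91 and 6.48 in organoids and 19.2 and 25.9 in stroma. Markers of squamous epithelium summed to 1633 and 111 CPM in stroma, 12.3 and 12.4 in assembloid epithelium, 2.53 and 2.95 in tissue and 2.76 and 4.17 in organoids. The part of these lists in the differences was not tested.

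In an assembloid, stroma and epithelium share a droplet, and their comparison describes where in the co-culture the genes were high. As the levels were known when the genes were chosen, the counts and adjusted p-values below are descriptions from which nothing is read. Of the 38 genes, 22 passed as lower in stroma than in assembloid epithelium, 3 as higher and 13 did not pass, where 68.5% of all 19745 genes tested passed, 35.9% as lower and 32.6% as higher. The median log2 fold change was -1.18 for the 38 genes and -0.07 for all genes. With epithelial cells left out of the stromal libraries, an alternative added after the data were seen, 25 genes passed as lower and 3 as higher, where 71.6% of all genes passed.

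The 3 genes higher in stroma were P4ha1, P4ha2 and Ndufa4l2, and the first 2 serve the folding of collagen. P4ha1 gave 334 and 299 CPM in stroma against 61.3 and 65.1 in epithelium, a log2 fold change of 2.16 ± 0.17 (adjusted p = 0.000911). P4ha2 gave 134 and 93.3 CPM against 32.4 and 43.2 (1.43 ± 0.24, adjusted p = 0.00539). For Ndufa4l2 the difference was 2.62 ± 0.34 (adjusted p = 0.00264). None of the 3 overlapped between the groups, and all 3 passed in each alternative run for this comparison. P4ha1 in assembloid epithelium was 19.4% and 20.5% of the stromal mean and P4ha2 28.5% and 38.05%, beside the shares of fibroblast markers given for Ndufa4l2, and the part of stromal RNA in these epithelial levels was not tested.

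Of the genes that fell short of epithelium, Car9 was the farthest, at 12.4 and 2.10 CPM in stroma (log2 fold change -4.24 ± 0.89, adjusted p = 0.0111). Within the stromal libraries Car9 lay at 63.4 and 60.2 CPM in the epithelial cells, which were set by epithelial and squamous markers together. In cells outside all gates it lay at 3.66 and 1.10 CPM. Without the epithelial cells the log2 fold change was -6.05. It was -6.01 without stroma library 1 and -3.44 without stroma library 2. Egln3 shared this course, with 60.2 and 20.3 CPM in stroma as a whole, 194 and 155 in its epithelial cells and 37.9 and 17.5 outside all gates (-2.73 ± 0.55, adjusted p = 0.00952). Without stroma library 1 it came to -3.70 and without stroma library 2 to -2.12. Ndrg1 gave 44.8 and 31.3 CPM in stroma (-3.96 ± 0.26, adjusted p = 0.000661).

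Higd1a gave 284 and 185 CPM in stroma (-2.94 ± 0.30, adjusted p = 0.00157) and Aldoc 8.88 and 4.98 (-2.86 ± 0.36, adjusted p = 0.00239), both below every assembloid epithelium library. The hexokinases were lower as well, with Hk1 at 32.7 and 27.9 CPM (-2.20 ± 0.17, adjusted p = 0.000874) and Hk2 at 67.9 and 73.7 CPM (-2.79 ± 0.29, adjusted p = 0.00161). Slc2a1, the glucose carrier, lay at 74.4 and 38.97 CPM (-2.40 ± 0.35, adjusted p = 0.00365), whereas the lactate exporter Slc16a3 lay at 134 and 65.1 CPM and did not pass (0.30 ± 0.36).

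Bnip3 was lower in stroma at 119 and 86.7 CPM (-1.66 ± 0.24, adjusted p = 0.00372), and so were Bnip3l at 138 and 119.9 CPM (-0.89 ± 0.17, adjusted p = 0.00828), Pdk1 at 28.1 and 19.2 CPM (-1.64 ± 0.23, adjusted p = 0.00322), Ero1l at 163 and 83.4 CPM (-2.83 ± 0.38, adjusted p = 0.00283) and Eno1 at 400.2 and 289 CPM (-1.63 ± 0.24, adjusted p = 0.0039). Adm at 36.1 and 24.8 CPM, Ak4 at 16.6 and 8.70 and Mxi1 at 31.7 and 20.7 passed as lower too, with log2 fold changes of -2.44 ± 0.25, -2.43 ± 0.34 and -1.66 ± 0.25. Gapdh, at 2703 and 1574 CPM, passed in the 4 libraries together (-1.07 ± 0.33, adjusted p = 0.0356), and not without stroma library 2 (-0.71), without assembloid epithelium library 1 (-1.13) or 2 (-1.04), or with the replicate number as a block (-1.12). Gpi1 (-0.90 ± 0.29, adjusted p = 0.0432) lost its call under the same 4 alternatives, with -0.56 without stroma library 2, and also with at most 5% mitochondrial UMIs (-0.77) and with cells thinned to 2000 UMIs (-0.89). Bnip3l lost its call without stroma library 2 (-0.76). Of the rest, Pfkp, Pfkfb3, Ankrd37 and Kdm3a passed as lower by 1.30 to 2.81 on the log2 scale.

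No difference between the compartments passed for Vegfa (122 and 90.1 CPM in stroma, -0.14 ± 0.25), Hif1a (267 and 220.0, 0.19 ± 0.24), Pfkl (127 and 83.6, -0.02 ± 0.27) or Pkm (1364 and 826, -0.02 ± 0.30). Pgam1, at 873 and 497 CPM, was above both epithelial libraries in both stromal ones without passing (0.65 ± 0.33), and passed as higher without stroma library 2 (1.02). Pgk1 and Ldha, at 738 and 417 and at 1262 and 758 CPM, also did not pass, nor did Aldoa, Tpi1, Egln1, Ddit4 and Fam162a, whose log2 fold changes ran from -0.76 to -0.31. By the median, the stromal libraries differed from each other more than those of any other group. The first lay above the second for 36 of the 38 genes, by a median of 0.62 on the log2 scale, against medians of 0.14 to 0.48 between libraries in the other groups, where the second lay above the first for most genes.

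Cells were also placed in classes by marker lists, a cell entering a gate when its mean marker level lay 1.5 SD or more above the mean over libraries of its compartment and it held at least 2000 UMIs, while neuronal cells of the stroma were those with more neuronal than fibroblast marker UMIs. Such a gate is a range of a score, and cells within 0.25 SD of it numbered 80 to 128 in the goblet gates of tissue and assembloids and 45 to 123 in the colonocyte gates. A gate also needed at least 3 detected markers, and a cell went to the gate where it scored highest. The goblet gate further needed goblet marker UMIs of at least 5 times the median over the passing cells of that library. That cut was therefore set within each library. Goblet cells, which secrete mucus, numbered 471 and 510 in tissue and 227 and 260 in assembloids, and colonocytes, the absorptive cells, 461 and 671 and 474 and 215. Enteroendocrine cells, which secrete hormones, numbered 51 and 102 in tissue and 71 and 53 in assembloids. Organoids had at most 14 cells in any of these 3 gates and are not given there. Cells of the cycling gate were found in all 3 groups, 55 to 1445 per library.

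The higher levels of assembloids were also present within classes, with a median log2 ratio of assembloid to tissue CPM of 2.13 in goblet cells, 2.18 in colonocytes, 2.37 in enteroendocrine cells and 2.14 in cycling cells. These ratios come from the libraries that served to choose the genes, and nothing is read from the counts that follow. Both assembloid libraries lay above both tissue libraries for 38 of the 38 genes in cycling cells, where 27.1% of all genes did (and 45.4% lay below), and for 38 in cells outside all gates, where 31.7% did (47.5% below). In goblet cells the count was 37, all but Hk2 (20.5% of all genes, 57.4% below). In colonocytes it was 36, all but Mxi1 and Pfkl (21.3%, 56.9% below), and in enteroendocrine cells 37, all but Hif1a (18.6%, 47.2% below). For organoids, the count above tissue was 32 in cycling cells (28.5% of all genes, 41.4% below), 28 in cells outside all gates (32.7%, 44.2% below) and 28 in the stem gate (28.0%, 37.3% below). The genes that were above tissue in none of these 3 were Hif1a, Hk1, Hk2, Kdm3a, Ndrg1 and Slc2a1.

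**Figure D3:**
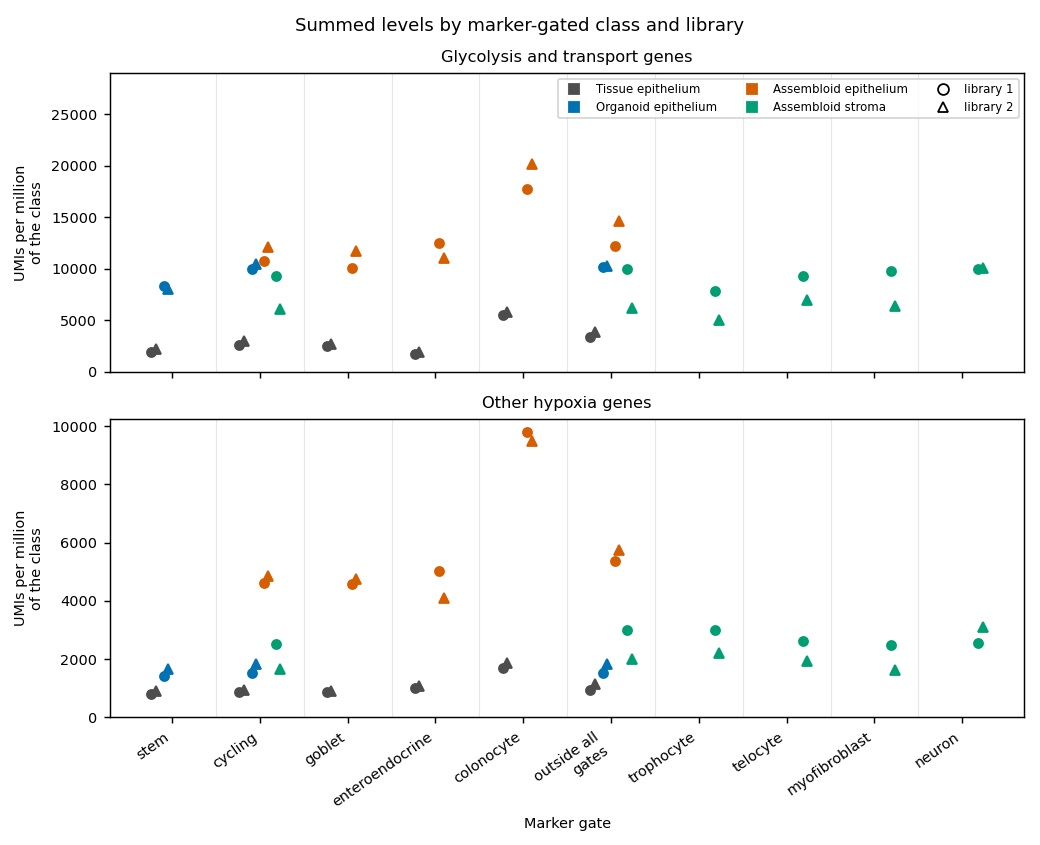
Summed CPM of the 18 glycolysis and transport genes (top) and the 20 other hypoxia genes (bottom) in each marker-gated class with at least 50 cells, with 1 marker per library. Colonocytes are highest in tissue (5518 and 5750.4 CPM in the top panel) and in assembloids (17713 and 20155 CPM), and every assembloid class lies above the tissue class of the same name.

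In tissue, the summed level of the 18 glycolysis and transport genes was 5518 and 5750.4 CPM in colonocytes, against 1940 and 2224 in cells of the stem gate, 2490.4 and 2660 in goblet cells and 1757 and 1880.1 in enteroendocrine cells. Colonocytes also led in assembloids, with 17713 and 20155 CPM, against 10048 and 11759 in goblet cells and 12460.0 and 11010.1 in enteroendocrine cells. The other 20 genes summed to 1677 and 1866 CPM in tissue colonocytes, where Higd1a alone gave 850.3 and 1017, and to 9803 and 9499.9 CPM in assembloid colonocytes, where Higd1a gave 4504 and 3852. Higd1a was lower in the other classes, at 176 and 213 CPM in goblet cells of tissue and 1187 and 1050.5 in those of assembloids. Car9 was likewise higher in colonocytes than in goblet cells, with 29.6 and 26.9 CPM in colonocytes and 10.1 and 11.95 in goblet cells of tissue, and 197 and 242 and 58.6 and 77.3 in those of assembloids.

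Ndrg1 turned its order between classes around. In tissue it lay at 292 and 196 CPM in enteroendocrine cells and 201 and 175 in goblet cells against 21.1 and 23.95 in colonocytes. In assembloids colonocytes held 709 and 869 CPM, above goblet cells at 542 and 574 and enteroendocrine cells at 424 and 362. Vegfa did likewise between colonocytes and goblet cells, at 8.36 and 11.9 CPM in tissue colonocytes against 21.3 and 21.5 in goblet and 63.3 and 45.9 in stem-gate cells, and at 145 and 119 CPM in assembloid colonocytes against 116 and 87.00 in goblet cells. Slc2a1 was highest in assembloid colonocytes at 502 and 565 CPM, against 243 and 239 in goblet cells. Hk2 was highest in tissue in cells of the stem gate, at 407 and 365 CPM. Bnip3 reached 21.6 and 18.2 CPM in enteroendocrine cells of tissue against 7.002 and 4.30 in colonocytes and 4.96 and 3.11 in goblet cells, and in assembloids 460.2 and 346 CPM in colonocytes. The tissue values of Bnip3 rest on few molecules in so few enteroendocrine cells.

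Classes of the stroma varied by gene. Cells with neuronal markers, 58 and 89 of them, held Ndufa4l2 at 761 and 1171 CPM against 279 and 148 in cells outside all gates, and Aldoc at 92.7 and 103 against 8.25 and 5.14 CPM. Bnip3 was at 167 and 232 CPM in these cells and at 127 and 94.4 outside all gates. Their Hif1a was low in comparison, at 65.3 and 54.5 CPM, while cells in the gate for telocyte markers (fibroblasts beneath the epithelium) held 396 and 436 CPM. Telocyte-gate cells were in turn low in Ndufa4l2, at 103 and 32.6 CPM, against 251 and 207 in cells of the trophocyte gate (deeper fibroblasts that feed crypt stem cells). P4ha1 was highest in the trophocyte gate, at 448 and 392 CPM, and 155 and 145 in neuronal cells. Non-epithelial cells left out of the 2 assembloid epithelium libraries held Vegfa at 247 and 176 CPM and Ndufa4l2 at 159 and 259.8 CPM.

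To compare the spread over cells at 1 depth, each cell was thinned to 2000 UMIs, and shallower cells were left out. This left 2437 of 4685 and 2767 of 4305 cells in tissue and 4762 of 4872 and 4615 of 8034 in organoids. In assembloid epithelium it left 20931 of 27702 and 5957 of 6737 cells, and in stroma 8969 of 9020 and 9016 of 9048. The values of tissue and of organoid library 2 thus leave out a large part of their cells. In tissue the 20 hypoxia genes gave a median of 2 UMIs per cell in both libraries, against 3 in both organoid libraries, 10 and 11 in assembloid epithelium and 4 and 3 in stroma. The 90th percentile was 4 and 5 UMIs in tissue, 6 and 7 in organoids, 18 and 21 in assembloid epithelium and 15 and 9 in stroma. The stromal medians were thus below those of assembloid epithelium and not below those of tissue and organoids. The variance over the mean of this sum would be near 1 for counting noise alone. It was 1.37 and 1.46 in tissue, 1.88 and 1.98 in organoids, 2.75 and 4.49 in assembloid epithelium and 6.38 and 5.29 in stroma. At an equal relative spread this ratio rises with the mean. The mean was 2.08 and 2.36 UMIs in tissue, 3.19 and 3.70 in organoids, 11.0 and 11.9 in assembloid epithelium and 6.56 and 4.10 in stroma. The ratios are therefore not compared between groups as degrees of spread. In stroma the 10% of cells with most hypoxia UMIs held 33.8% and 37.5% of them. These stromal values include the cells with more epithelial and squamous than stromal marker UMIs. Such cells were 13.8% and 2.66% of the top 10% and 10.1% and 0.666% of the other cells. Without them, an alternative added after the data were seen that left 8033 and 8938 cells, the median was again 4 and 3, the 90th percentile 14 and 9, the variance over the mean 6.48 and 5.22 and the share of the top 10% 34.8% and 37.5%.

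The top stromal cells differed from the others in other respects. With all cells kept, the top 10% by the hypoxia sum held 44.7 and 31.9 UMIs of the 18 glycolysis and transport genes per cell, against 18.7 and 10.4 in the other cells. Their median mitochondrial share was 2.32% and 2.55% against 4.01% and 4.25%, and 6.47% and 3.22% of them were in the cycling gate against 13.7% and 9.64% of the others. Their median depth before thinning was 11273 and 11113 UMIs against 16040.0 and 13564. Without the epithelial cells these differences had the same direction, with 44.2 and 31.6 glycolysis and transport UMIs against 17.6 and 10.3, mitochondrial shares of 2.26% and 2.54% against 4.03% and 4.25%, 7.60% and 3.36% against 15.3% and 9.71% in the cycling gate, and depths of 10461 and 11085 UMIs against 15336 and 13515. In assembloid epithelium the top 10% held 33.9 and 38.4 glycolysis and transport UMIs against 23.5 and 26.4, with mitochondrial shares of 2.98% and 4.62% against 2.62% and 4.39%.

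Within each library the 2 sums went together over its cells. Pearson's r between the glycolysis and transport sum and the hypoxia sum was 0.289 and 0.271 in tissue (2437 and 2767 cells), 0.417 and 0.287 in organoids (4762 and 4615), 0.496 and 0.493 in assembloid epithelium (20931 and 5957) and 0.718 and 0.711 in stroma (8969 and 9016). Without the epithelial cells it was 0.730 and 0.708 in stroma. These are descriptions over cells of 1 library, which share its preparation, and the mean r of each group was lower when the same cells were thinned further. Counting noise lowers r more where counts are small, as in tissue. The r of sums and of single genes are therefore not compared between groups as degrees of coupling. Among single genes, Pgk1 had an r with the sum of the other 37 genes of 0.644 and 0.666 in stroma and 0.12 and 0.118 in tissue. Hif1a had r from -0.0412 to 0.0611 over the 8 libraries. Ndrg1 had an r of -0.128 and -0.119 in tissue and of 0.339 and 0.375 in assembloid epithelium. Among the genes with the highest variance over the mean in stroma were Ndufa4l2 (3.60 and 3.56) and Gapdh (3.40 and 2.86), while Ero1l had 3.78 and 2.35. Without the epithelial cells the values were 3.66 and 3.57, 3.41 and 2.81, and 3.58 and 2.31. In assembloid epithelium they were Gapdh, with 2.29 and 3.86, and Higd1a, with 2.51 and 3.68.

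**Figure D4:**
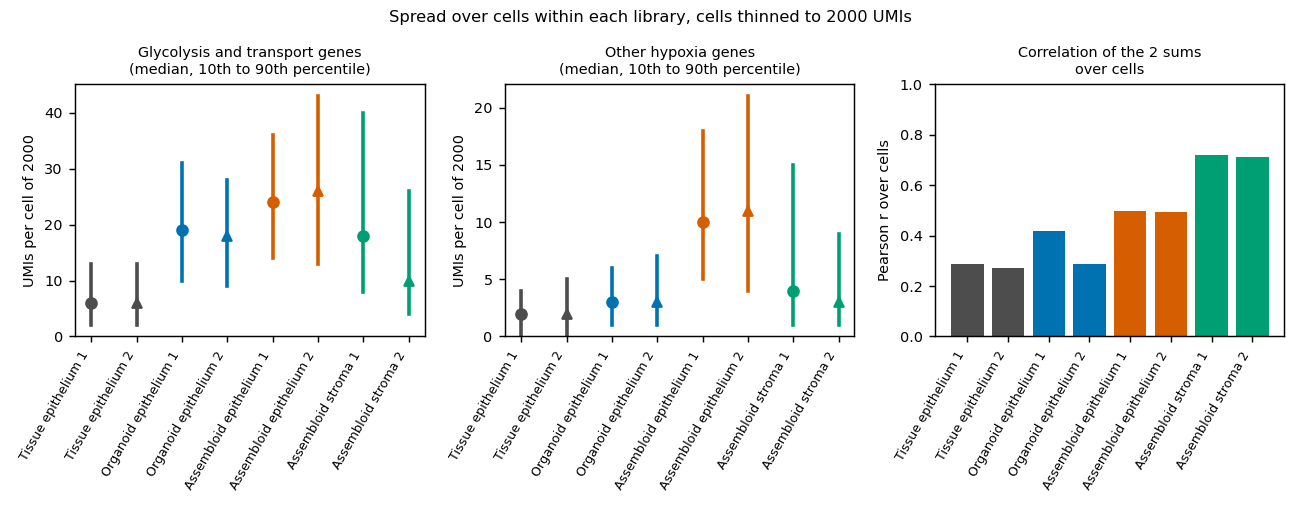
Sum of the 18 glycolysis and transport genes (left) and of the 20 other hypoxia genes (centre) in UMIs per cell after thinning to 2000 UMIs, with the median as a marker and a line from the 10th to the 90th percentile, and Pearson's r between the 2 sums over cells (right), for each library. The hypoxia sum is highest in assembloid epithelium (medians of 10 and 11). In stroma, whose epithelial cells are included, r is 0.718 and 0.711. Counting noise lowers r more where counts are small, so r is not compared between groups as a degree of coupling.

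Around these members stand other genes of the same pathways, of which 54 were counted. This list too was chosen with earlier results of these data known, and nothing is read from its counts. In assembloid against tissue epithelium 30 of the 54 passed as higher (55.6%, against 26.7% of all genes tested) and 9 as lower (16.7%, against 4422 of 19214 genes). In organoid against tissue epithelium 8 passed as higher (14.8%, against 24.3%) and 18 as lower (33.3%, against 22.9%). In organoid against assembloid epithelium 3 passed as higher (5.56%, against 24.3%) and 36 as lower (66.7%, against 28.5%). In assembloid stroma against assembloid epithelium 16 passed as higher (29.6%, against 32.6%) and 18 as lower (33.3%, against 35.9%), which is near the background in both directions. Pgf, a relative of Vegfa, gave 0.149 and 0.0271 CPM in tissue and 11.4 and 8.89 in assembloid epithelium (7.15 ± 0.80). Lox, which crosslinks collagen, had 0 UMIs in all tissue and organoid libraries and 14.98 and 3.06 CPM in assembloid epithelium, in the lower of the 2 libraries at least 85.7-fold above tissue and 286-fold above organoids when 3 UMIs over the group are taken as the floor. In stroma Lox lay at 134 and 148 CPM, and its level in assembloid epithelium was 10.7% and 2.18% of the stromal mean. The shares of the 8 fibroblast markers were 1.01% to 7.16% in library 1 and 0.399% to 2.39% in library 2. The part of stromal RNA in the Lox level was not tested. On the other side stood Pdk4, the kinase of fasting and fat use, with 7.15 and 6.77 CPM in tissue, 0.0267 and 0.0323 in organoids and 0.253 and 0.579 in assembloids, and Eno3, the enolase of muscle, with 92.3 and 96.2, 13.6 and 6.33 and 5.84 and 7.41 CPM.

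Loxl2 and Sap30 were the 2 genes farthest above tissue in organoids, by 3.89 ± 0.78 and 3.32 ± 0.35, the first from 14 and 4 UMIs in tissue. Between the cultures, Pfkfb1 and Tfrc, the transferrin receptor, were farthest above assembloids in organoids (1.96 ± 0.41 and 1.44 ± 0.20), and Lox and Bhlhe41 farthest below, Bhlhe41 with 0 UMIs in both organoid libraries and 1.45 and 0.523 CPM in assembloids, at least 48.9-fold higher in the lower library by the same floor. In stroma, Igfbp3 at 103 and 53.7 CPM and Ldhb, the lactate dehydrogenase subunit of oxidative tissues, at 306 and 192 were farthest above assembloid epithelium, by 7.26 ± 0.77 (adjusted p = 0.00164) and 6.51 ± 0.66 (adjusted p = 0.00153). Hif3a, an inhibitory relative of Hif1a, was far below it, at a log2 fold change of -6.69 ± 0.25 (adjusted p = 0.000422). Hif3a gave 7.36 and 6.88 CPM in tissue, 4.39 and 10.5 in organoids, 33.9 and 46.5 in assembloid epithelium and 0.482 and 0.379 in stroma.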

How the data were processed

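All 8 single-cell libraries (10x Genomics 3' v3) were analysed. The authors' deposited matrices hold raw UMI counts per gene and cell, made with Cell Ranger (version 6 and mm10 per the labels; 7.1.0 for epithelium and 6.0.1 for stroma per the file headers); whether intronic reads were counted is not given in the sources used here. The 38 genes and all lists were chosen with earlier results of these data known. Values in every library are given for a set of genes listed by name and for the 4 highest and 4 lowest log2 fold changes of each comparison, and of the other pathway genes the 2 highest and 2 lowest that passed are named, except 1 gene that is not reported here.

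Cells with fewer than 500 genes or over 10% mitochondrial UMIs were dropped, and so were cells of epithelial libraries with more stromal than epithelial marker UMIs. No doublet caller was run. UMIs were summed per library and tested with edgeR 4.0.16 (quasi-likelihood, filterByExpr, TMM, Benjamini-Hochberg, adjusted p under 0.05) under R 4.3.3, in a fit of the 6 epithelial libraries and a fit of the 4 assembloid libraries. Class gates and their 1.5 SD threshold were set after values were seen. For the spread over cells each cell was thinned to 2000 UMIs (numpy 2.4.6, fixed seed). Sums held 36943571 to 187583982 UMIs per library, and intervals cover counting error only. On simulated data with 200 genes changed 4-fold, the fit recovered 97.0% for assembloid against tissue epithelium (18967 genes, 6 false calls) and 72.5% for stroma against assembloid epithelium (19665 genes, 3 false calls). There all genes of a fit had the same dispersion, changed genes were drawn above a floor on mean level, and all others were unchanged. These rates are therefore not those of the real data. Alternatives were DESeq2 1.42.0, other filters, thinning, the cycling gate alone, a looser gate, a replicate block and each library left out.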

Additional observations from a re-analysis of the deposited data

How the results depend on the processing

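The number of the 38 genes that passed stayed within 1.5 times of the reported one under every alternative run. It was 37 to 38 (33 to 38 with a library left out) for assembloid against tissue epithelium, 27 to 32 (19 to 30) for organoid against tissue epithelium, 23 to 30 (23 to 27) for organoid against assembloid epithelium and 23 to 28 (23 to 29) for stroma against assembloid epithelium. The share of all genes that passed was 38.3% to 52% (26.1% to 50.5%), 37% to 50.6% (26.2% to 49.3%), 41.2% to 57.5% (38.7% to 49.3%) and 52.8% to 71.6% (53% to 59.9%) in the same order. The 33 and the 19 came without tissue library 1, where Hif1a, Hk1, Hk2, Mxi1 and Pfkl were lost from the first comparison, Aldoa, Egln1, Fam162a, Gapdh, Gpi1, Hk1, Pfkl, Pfkp and Vegfa were lost from the second comparison and 26.1% and 26.2% of all genes passed in place of 49.7% and 47.2%. Without tissue library 2, Aldoa, Egln1, Fam162a, Gpi1, Hk1 and Vegfa were lost from the second. Between the cultures, Ak4 was lost without organoid library 1 or either assembloid library. Genes that newly passed with a library left out were Adm and P4ha1 (organoid library 1) and Ndrg1 (organoid library 2) for organoid against tissue epithelium, Aldoa, Bnip3l and Egln1 (organoid library 1) and Pdk1 and Slc16a3 (organoid library 2) between the cultures, and Fam162a, Ldha, Pgk1 and Tpi1 (stroma library 1) and Pgam1 (stroma library 2) for stroma. The median log2 fold change for assembloid against tissue epithelium moved from 2.40 to 2.61 with cells thinned to 2000 UMIs, 2.59 within the cycling gate and 2.61 in cells outside all gates (added after the data were seen). Within the cycling gate it moved to 1.96 for organoid against tissue and to -0.92 for organoid against assembloid epithelium. The cause was not tested. With cells thinned to 1000 UMIs, the mean variance over the mean of the hypoxia sum was 1.18 in tissue, 1.40 in organoids, 2.22 in assembloid epithelium and 3.44 in stroma, and the mean r between the sums 0.135, 0.201, 0.371 and 0.629. That setting also takes in shallower cells. With the same cells thinned again to 1000 UMIs (added after the data were seen) they were 1.23, 1.44, 2.30 and 3.45, and 0.191, 0.258, 0.392 and 0.626.

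Of 1636 values of single genes with all libraries, 1556 kept direction and side of the threshold, 41 newly passed, 18 no longer passed and 21 turned direction, all 21 for genes that had not passed. Organoid against assembloid epithelium gave 0.14 for Eno1, 0.20 for Ldha and 0.08 for Pkm within the cycling gate, 0.01 for Pkm with all cells kept, and -0.09 for Pfkl and -0.04 for Pgam1 after thinning. Organoid against tissue epithelium gave -0.28 for Kdm3a and 0.36 for Ndrg1 outside all gates, -0.49 for Kdm3a in the cycling gate, and -0.01 for Kdm3a and for Slc2a1 after thinning. Stroma against assembloid epithelium gave -0.23 for Hif1a after thinning, 0.02 for Vegfa with at most 5% mitochondrial UMIs, and for Pfkl and Pkm 0.02 with all cells kept, 0.00 with at most 20% mitochondrial UMIs or no filter, and 0.09 and 0.06 with at most 5%. With libraries left out, values ran from -0.39 to 0.05 (Eno1), -0.11 to 0.28 (Pfkl), -0.26 to 0.48 (Pgam1) and -0.21 to 0.05 (Pkm) between the cultures, from -0.25 to 0.30 (Kdm3a) and -0.07 to 0.20 (Slc2a1) for organoids against tissue, and from -0.04 to 0.44 (Hif1a), -0.34 to 0.27 (Pfkl), -0.41 to 0.32 (Pkm), -0.30 to 0.75 (Slc16a3) and -0.36 to 0.09 (Vegfa) for stroma.

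Whether libraries of the same number in different groups share a culture, animal or day is not given in the sources used here. The correlations of their deviations were -0.150 to 0.161, which cannot settle this with 2 libraries a group. With the number as a replicate block, 38, 28, 26 and 23 genes passed in the 4 comparisons (48.9%, 46.5%, 51.9% and 61.8% of all genes), with medians of 2.39, 1.40, -1.27 and -1.22. With 2 libraries a group, differences the size of those between replicates cannot be resolved, and genes with few UMIs in tissue, such as Ndufa4l2, carry wide intervals.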
